A study of Mus musculus with 8 samples.

Results

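Of 8689 merged peak regions in mouse embryonic stem cells, 242 were called both with an antibody against METTL14 and with an antibody against METTL3, and these 242 shared regions are described here. All peaks of the 8 CUT&RUN peak lists that overlapped by at least 1 bp were merged, and a region was kept when METTL14 and METTL3 had each been called there in 1 library or more. The shared regions made up 2.79% of all regions, 3.00% of the 8063 regions touched by METTL14 and 27.9% of the 868 regions touched by METTL3. Those shares follow from how the regions were chosen and carry no test. The other 7821 regions were called with METTL14 only and 626 with METTL3 only.

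METTL3 and METTL14 form a nuclear heterodimer that places N6-methyladenosine (m6A) on RNA. METTL3 carries the catalytic activity, and METTL14 is catalytically inactive and helps to bind RNA. The complex acts during transcription, and in mouse embryonic stem cells it is known for its effect on transcripts that encode pluripotency factors. CUT&RUN maps a protein on chromatin: an antibody brings a protein A-micrococcal nuclease fusion to the protein, and the DNA cut free is sequenced.

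The cells were C57BL/6 embryonic stem cells grown with LIF, the GSK3 inhibitor CHIR99021 and the MEK inhibitor PD0325901. The 4 groups, with 2 libraries each, were METTL14 in Mettl3 CKO cells and in Mettl3 Control cells, and METTL3 in Mettl14 CKO cells and in Mettl14 Control cells. The labels do not spell out CKO, name a promoter or Cre, or say whether replicate libraries were separate cultures, so the spread behind each p-value may be technical. Each antibody was used in lines for the partner's gene, so antibody and cell line changed together and their effects cannot be told apart. No library from a nonspecific antibody, or from cells lacking the antibody's own target, was analysed here. Peak lists hold no expression values, so neither the loss of METTL3 or METTL14 nor the stem cell identity was checked.

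The METTL14 lists held 3922 and 1439 peaks in Mettl3 CKO libraries and 3129 and 3546 in Mettl3 Control libraries, each peak usually 149 bp wide. The METTL3 lists were shorter, with 242 and 344 peaks in Mettl14 CKO libraries and 353 and 341 in Mettl14 Control libraries, and their peaks were 245 to 285 bp wide. Read depth is not given in the sources used here, and the lists carry no peak height. The score of every peak was 1. The place of a peak in its list, as a percentage of the list's length with the first peak near 0, was therefore the sole ordering available, and no source used here states what orders the lists. Intervals below are Wilson intervals at 95% and reflect counting error alone.

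The 10 regions placed earliest among those called in all 8 libraries are given first, with their positions. The region chr2:98666962-98667246 (mm10), in no annotated gene, was the first peak of all 8 lists. The region chr6:103649082-103649366 lay inside Chl1, which encodes a neural cell adhesion molecule, and was the third peak of all 8 lists. The region chr9:35305305-35305589, inside the long noncoding RNA gene Gm33838, stood at position 6 in both Mettl3 CKO lists and 5 in both Mettl3 Control lists of METTL14, and at position 2 in all 4 METTL3 lists. In these 3 regions CKO and control lists differed by at most 1 position. Repeat annotation and lists of intervals prone to false peaks were not used here. Whether METTL14 or METTL3 was bound at the 10 regions was therefore not tested.

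The mitochondrial region chrM:15467-15763, 179 bp past the end of the cytochrome b gene CYTB, stood at positions 14 and 15 in Mettl3 CKO lists and 14 and 14 in Mettl3 Control lists, and at position 4 in every METTL3 list. The region chr14:19415734-19416018 stood at position 8 in both Mettl3 CKO lists, 7 in both Mettl3 Control lists and 5 in every METTL3 list. The next in order were chr12:3109842-3110137, chr15:75086643-75087038, chr9:3000313-3000616 and chrX:143482919-143483204, none of them in an annotated gene. The region chr17:39843559-39843929 lay lower in coordinate than the ribosomal RNA copy Rn18s-rs5, which is annotated as a pseudogene. Its METTL14 positions were 19 and 18 in CKO and 19 and 22 in Control lists. Its METTL3 positions were 11 and 13 in CKO and 9 and 11 in Control lists. Of these 10 regions, 1 lay inside a protein-coding gene and 1 within 2 kb of one.

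The shared regions stood at the front of the METTL14 lists. The median position of peaks in shared regions was 3.20% and 6.74% of the list in Mettl3 CKO libraries and 4.20% and 3.67% in Mettl3 Control libraries, while all other METTL14 peaks had medians of 51.9% to 54.7%. Over regions, the median of the mean METTL14 position was 6.24%, and it was 16.9% without the mitochondrial genome, contigs, chromosome 9 start and rRNA copy. With every list shortened to its first 242 peaks it was 37.9% for METTL14 and 28.4% for METTL3. In METTL3 lists the medians were 30.6% and 25.9% in Mettl14 CKO libraries and 23.5% and 23.5% in Mettl14 Control libraries, with other peaks at 69.9% to 76.4%. Each METTL14 list had 7 of its first 10 peaks and 78 to 81 of its first 100 in shared regions. Each METTL3 list had all of its first 10 and 92 to 96 of its first 100 there. In METTL14 lists 114 to 130 of the first 200 peaks were in shared regions, where a whole list held 156 to 206 such peaks. Most shared peaks of each METTL14 list were thus among its first 200.

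The order of the shared regions ran in parallel in both antibodies. Across the 242 regions the mean position in METTL14 lists and that in METTL3 lists had a Spearman correlation of 0.89. The correlation was 0.91 over the 80 regions called in all 8 libraries and 0.80 over the 160 regions outside the mitochondrial genome, the contigs, the start of chromosome 9 and the rRNA copy. Between single libraries, it was 0.95 to 0.98 for the 12 pairs with the same antibody and 0.88 to 0.93 for the 16 pairs with different antibodies. These are descriptions over regions, which share libraries and mapping and are not independent, and position was tied to the calls that chose the regions.

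**Figure D1:**
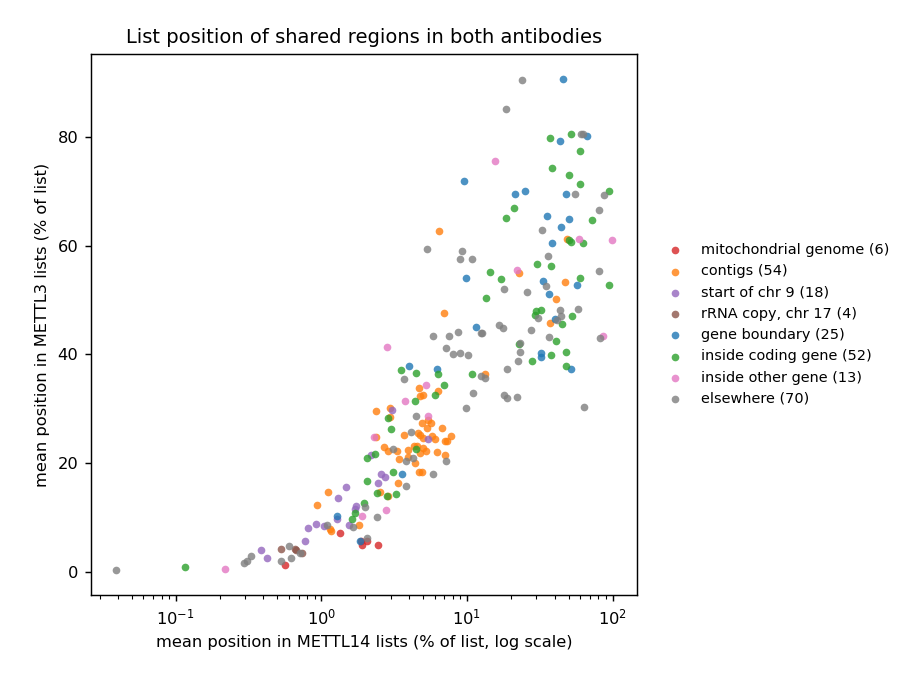
Mean position of each of the 242 shared regions in METTL14 lists (percent of the list, log scale, horizontal) and in METTL3 lists (percent of the list, vertical), averaged over the libraries that called it and coloured by place. The points rise together from the lower left, with a Spearman correlation of 0.89, and mitochondrial, rRNA and chromosome 9 start regions lie towards the low end of both axes.

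The merging rule itself requires that a METTL14 peak overlaps a METTL3 peak in each of the 242 regions, so that is no result. In 207 regions (85.5%) a METTL14 peak lay wholly inside a METTL3 peak. For the 234 regions with 1 peak per calling library, the mean centres of the antibodies' peaks differed by a median of 16.6 bp (interquartile range 4 to 48.6 bp), and by 6.88 bp in 76 such regions called in all 8 libraries. The rule's edge was thin: the smallest best overlap kept was 2 bp, and 11 regions had a best overlap under 50 bp. Just outside, the nearest METTL3-only region was 5 bp from a METTL14 peak, and 8 of the 626 lay within 100 bp. The median distance of METTL3-only regions to METTL14 was 116102 bp. The shared regions were 245 to 926 bp wide, with a median of 301.5 bp, and covered 82824 bp in all.

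All 8 libraries called 80 of the 242 shared regions (33.1%). These 80 were 0.921% of all merged regions. A region called in all 8 is shared by the rule, so both percentages count the same regions and their contrast is no result. At the other end, 33 regions rested on 1 METTL14 and 1 METTL3 library. Between these, 19 regions were called in 3 libraries, 32 in 4, 31 in 5, 23 in 6 and 24 in 7. Regions called more often stood earlier: the median position in METTL14 lists was 40.6% for regions called in 2 libraries and 2.41% for regions called in all 8, and in METTL3 lists 48.4% and 16.4%.

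As a description, since the same calls chose the regions, the shared fraction grew with the number of libraries that called a region. Of regions called in 1 METTL14 library, 0.826% (47 of 5693) were shared. That share was 2.14% (27 of 1259) for 2 libraries, 6.79% (43 of 633) for 3 and 26.2% (125 of 478; interval 22.4 to 30.3%) for all 4. For METTL3 it was 11.4% (78 of 683) for 1 library, 76.0% (38 of 50) for 2, 83.7% (36 of 43) for 3 and 97.8% (90 of 92; interval 92.4 to 99.4%) for all 4. All but 2 regions called in every METTL3 library were thus also called with METTL14. Among all regions touched by an antibody, 5.93% were called in all 4 METTL14 libraries and 10.6% in all 4 METTL3 libraries.

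**Figure D2:**
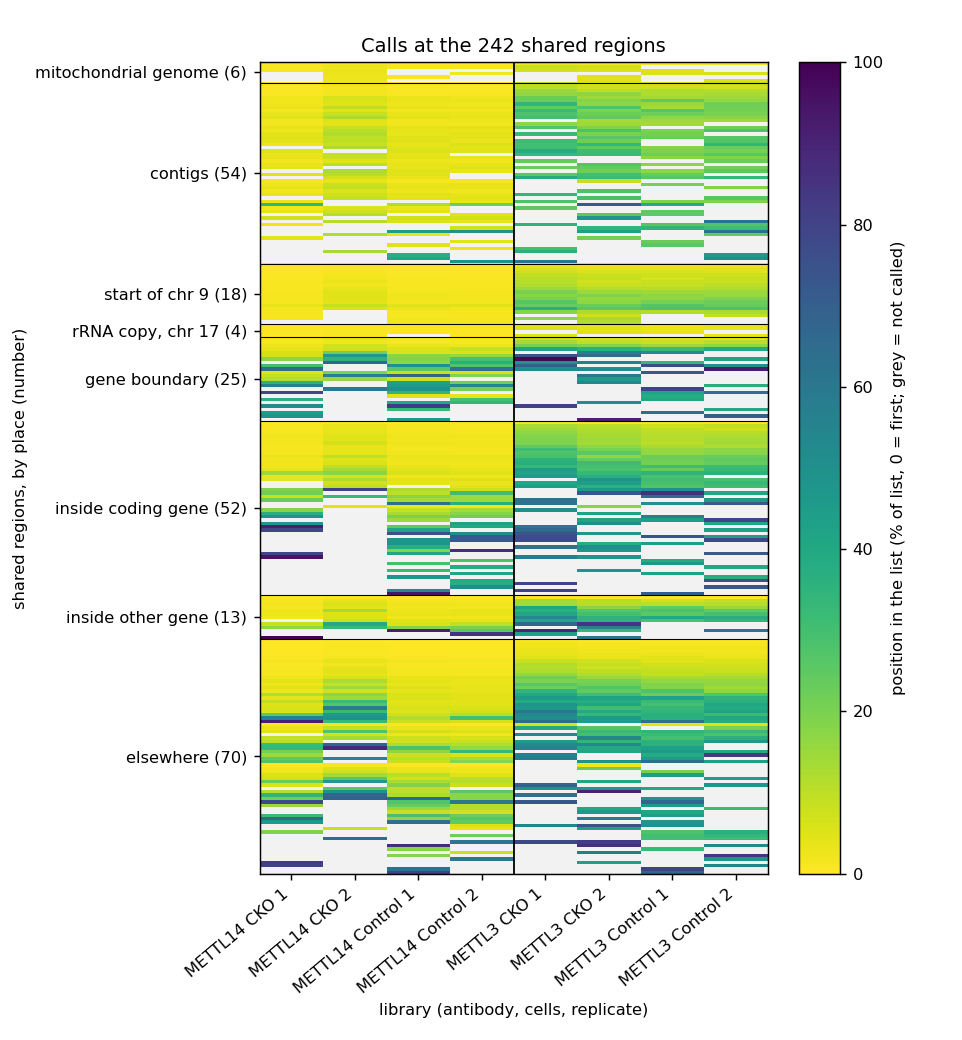
Position of each shared region (rows, grouped by place, number of regions in brackets) in each of the 8 lists (columns), as percent of the list from first (yellow) to last (dark); grey marks a region the library did not call. The 18 chromosome 9 start regions form a block with few gaps, while regions at gene boundaries and inside coding genes have many uncalled cells and later positions.

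The shared regions were divided among places differently from the regions of either antibody alone. The mitochondrial genome, unplaced contigs, the first 3.3 Mb of chromosome 9 and the rRNA copy on chromosome 17 together held 82 shared regions (33.9%; interval 28.2 to 40.1%), 0.933% of METTL14-only regions and 2.56% of METTL3-only regions. Of these 82, 28 were called in all 8 libraries. Place was not part of the rule, but the regions of a place come from the same libraries and often lie close together, so these shares are descriptions.

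Unplaced contigs are pieces of the assembly that could not be put on a chromosome. They held 54 shared regions (22.3%; interval 17.5 to 28%), against 0.767% of METTL14-only and 1.92% of METTL3-only regions. A single contig, JH584304, held 44 of them between its bases 446 and 113459, with 9 called in all 8 libraries. The same contig also held 22 METTL14-only and 10 METTL3-only regions. Its earliest shared region in the lists that was called in all 8, JH584304:103745-104029, stood at positions 24 and 25 in Mettl3 CKO and 23 and 24 in Mettl3 Control lists, and at 37 and 36 in Mettl14 CKO and 44 and 39 in Mettl14 Control lists. On contigs as a whole, 54 of the 66 regions touched by METTL3 were shared (81.8%) and 54 of the 114 touched by METTL14 (47.4%).

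The start of chromosome 9 held 18 shared regions within chr9:3000313-3038177, and 14 of them were called in all 8 libraries. That place held 7.44% of shared regions, 0.0639% of METTL14-only and 0.319% of METTL3-only regions. The mouse chromosome is telocentric, so its assembled start lies near the centromere. The region chr9:3000313-3000616 stood at position 11 in all 4 METTL14 lists and at position 8 in all 4 METTL3 lists. The region chr9:3022064-3022308 was absent from both Mettl3 CKO lists and stood at positions 58 and 56 in the Mettl3 Control lists. Only 1 METTL3 list, a Mettl14 CKO one, called it, at position 40.

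The ribosomal RNA genes of the mouse lie in tandem arrays, and the reference chromosome 17 holds a copy, annotated as the pseudogene Rn18s-rs5. All 4 regions touched by METTL3 within 10 kb of that copy were shared, and all 4 stood within the first 0.741% of the METTL14 lists on average. Inside the annotated pseudogene, chr17:39846381-39846744 was called in all 8 libraries. Its METTL14 positions were 17 and 16 in CKO and 18 and 19 in Control lists. Its METTL3 positions were 15 and 14 in CKO and 11 and 13 in Control lists. The region chr17:39848204-39848571, just beyond it, was called in all 4 METTL14 lists but in 1 Mettl14 CKO and 1 Mettl14 Control list of METTL3.

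The mitochondrial genome held 6 shared regions, which touched or lay within 2 kb of 6 of its 13 protein genes: COX1 (a cytochrome c oxidase subunit), CYTB (cytochrome b) and ND1, ND2, ND5 and ND6 (subunits of complex I). METTL14 regions were at 10 and METTL3 regions at 9 of the 13. Over all 21900 protein-coding genes, 0.274% had a shared region, 20.8% a METTL14 region and 1.53% a METTL3 region, each inside or within 2 kb. The mitochondrial genes lie so close together that 1 region can count for several. All 6 shared regions stood within the first 2.43% of METTL14 and 7.12% of METTL3 lists on average. Their calls varied between libraries nonetheless. The region chrM:15-281, over the tRNA gene TrnF and the 12S rRNA gene mt-Rnr1, was called in all 4 METTL14 lists and, of the METTL3 lists, in both Mettl14 CKO lists (positions 19 and 22) and in neither Mettl14 Control list. Nearby, chrM:398-682 had the opposite pattern in METTL3: neither CKO list called it, and both Control lists did, at positions 19 and 20.

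**Figure D3:**
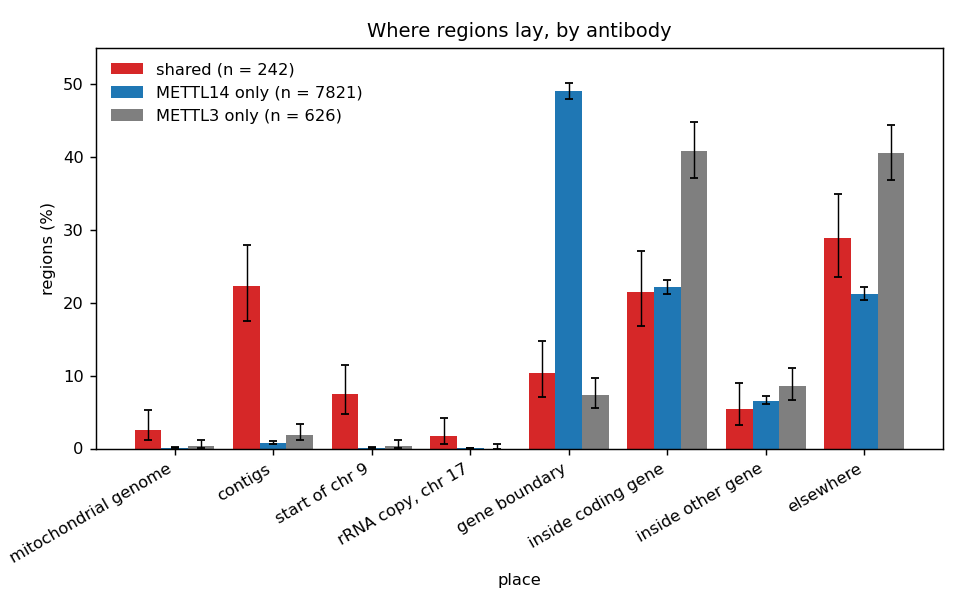
Percent of regions in each of 8 places (vertical axis starts at 0) for shared regions, METTL14-only regions and METTL3-only regions; bars show 95% Wilson intervals. Shared regions exceed both other classes on contigs (22.3%) and at the start of chromosome 9 (7.44%), while the gene boundary class holds 49.0% of METTL14-only regions and 10.3% of shared regions.

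Shared regions were seldom at gene boundaries, where METTL14 was called most. A boundary here is the start or end of a protein-coding gene, with 2 kb to either side. Of the 242 shared regions, 29 lay there (12%; interval 8.47 to 16.7%), against 45.1% of all merged regions. The 29 include 4 regions of the mitochondrial genome, which are otherwise counted by that place, and leave 25 (10.3%) in the boundary class. Of peaks within shared regions, 12.4% and 10.9% were at boundaries in Mettl3 CKO libraries of METTL14 and 11.7% and 8.96% in Mettl3 Control libraries. Other METTL14 peaks were at boundaries in 55.3% and 62.6% of cases in CKO and in 47.7% and 52.0% in Control libraries. No METTL14 library's share inside shared regions came near its share outside.

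The mean over the 4 METTL14 libraries was 11.0 ± 1.47% inside and 54.4 ± 6.31% outside shared regions (SD, n = 4), a difference of -43.4 percentage points that was negative in 4 of 4 libraries (exact sign-flip permutation test, two-sided, p = 0.125, the smallest that 4 libraries allow). A METTL14 peak counted as shared only where it met METTL3 peaks, and METTL3 peaks were at boundaries in 6.06% to 9.58% of cases. The rule thus bore on the share inside. All 4 METTL14 libraries called 125 of the 242 regions, so their differences are not independent. The difference is therefore a description, and the p-value lends it no support. Without the mitochondrial genome, contigs, chromosome 9 start and rRNA copy the METTL14 difference was -39.8 points, and with every list shortened to its first 242 peaks it was -34.8 points. In METTL3 lists the shares were 8.80 ± 0.881% inside and 7.39 ± 1.38% outside shared regions (SD, n = 4). The difference of 1.41 points (exact sign-flip permutation test, two-sided, p = 0.125, the smallest possible) turned to -6.79 points with a 5 kb window and to -5.39 with equal lists. Few METTL3 peaks were at boundaries in either class, and METTL3 showed no difference of stable direction.

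**Figure D4:**
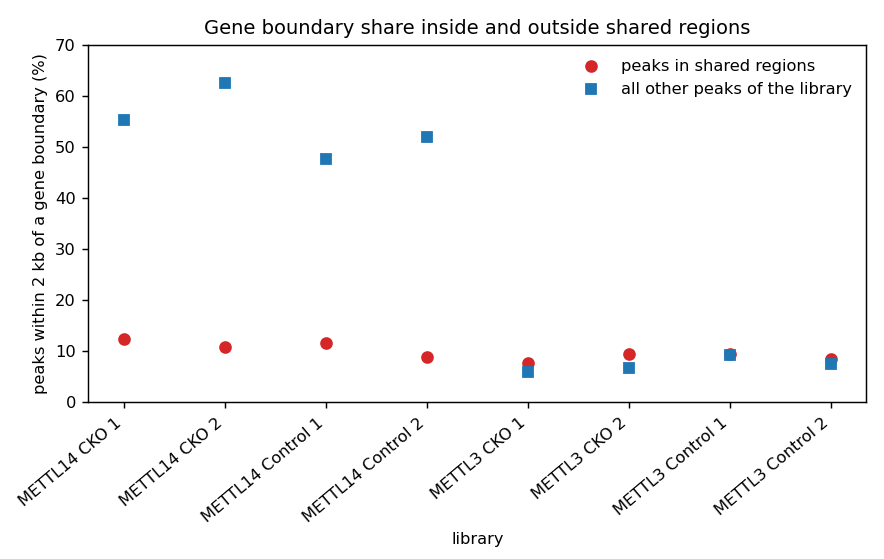
Percent of peaks at protein-coding gene boundaries (2 kb to either side) in each of the 8 libraries, for peaks in shared regions (circles) and all other peaks of the same library (squares). In METTL14 libraries circles lie between 8.96% and 12.4% and squares between 47.7% and 62.6%; in METTL3 libraries all symbols lie between 6.06% and 9.58%.

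Shared regions were inside or within 2 kb of 60 protein-coding genes (0.274% of all), METTL14 regions at 4546 (20.8%) and METTL3 regions at 334 (1.53%). None of the 39 Hox genes, which encode the homeodomain factors that pattern the body axis, had a shared region, while 35 had a METTL14 region. None of 40 other developmental transcription factor genes had a shared region, and 33 had a METTL14 region. The same held for 25 pluripotency factor genes, 12 of them with a METTL14 region, and for 19 immediate early genes, 13 of them with one. No gene of these 4 lists had a METTL3 region. Of 23 m6A factor genes, 11 had a METTL14 region, 1 a METTL3 region and none a shared one. Lists of 19 to 40 genes without a shared region are close to the 0.274% of all coding genes, so these zeros are no result about the lists. The METTL3 zeros stand beside 1.53% of all coding genes and are likewise no result about the lists. The METTL14 counts stand beside 20.8% of all coding genes and were not tested.

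At coding gene boundaries, 4 shared regions were called in all 8 libraries. One lay at chr1:183299131-183299415, inside Aida and 1833 bp from the nearest boundary of its neighbour Brox. It stood at positions 46 and 52 in Mettl3 CKO and 41 and 47 in Mettl3 Control lists, and at 18 and 20 in Mettl14 CKO and 16 and 16 in Mettl14 Control lists. The second was chr9:123461881-123462170, inside Lars2 (the mitochondrial leucyl-tRNA synthetase) and 505 bp from a boundary. The others were at Gm51877 inside Sfi1 (a centrosome protein gene), chr11:3199454-3199976, and near Elobl, chr11:88968648-88969376. The Elobl region had widely spaced METTL14 positions, 126 and 105 in CKO and 180 and 305 in Control lists.

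A further 6 boundary regions were called in 6 libraries. They were at Tmem267, Relb (a subunit of NF-kappaB), Zfpm1 (a GATA factor cofactor), A530032D15Rik, LOC100504180 and Slc30a4 (a zinc transporter). The Relb region, chr7:19628597-19629037, was called with METTL3 in both Mettl14 CKO lists, at positions 182 and 220, and in neither Mettl14 Control list. With METTL14 it stood at positions 261 and 671 in CKO and 553 and 541 in Control lists. Iqsec1, an activator of ARF GTPases, and Fbxo31, an F-box protein gene, had regions called in all 4 METTL14 lists and 1 METTL3 list. The mean positions of these 8 regions in METTL3 lists ran from 46.5% to 72.0%, later than those of most shared regions.

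Promoters proper were rarer still. The promoter table gives the bases around each transcription start, here the 250 bases before and 50 after it. On chromosomes with such windows, 8 of 175 shared regions (4.57%; interval 2.33 to 8.76%) overlapped one, as did 1958 of 7536 METTL14-only regions (26%) and 6 of 599 METTL3-only regions (1.00%), and 23.7% of all regions. The 8 were at Rnf44, Psmc6, Atp11b, LOC115490388, Gpr19, Klhl36, Fbxo31 and Gm39269. None of the 8 was called in more than 2 METTL3 libraries. Their windows had 57.2 to 68.4% G or C and 13 to 27 CpG steps, against medians of 52.4% and 6 over 32851 windows. Among all windows these were percentiles 65.8 to 89.0 for G or C and 70.6 to 92.4 for CpG steps. The windows at METTL14-only regions were not compared, so this is not shown to be particular to shared regions.

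The 3 promoters of coding genes with the most bases under both antibodies' peaks are shown, since they are the places where METTL14 and METTL3 calls meet at a start site. Each sequence is the 250 bases before the transcription start on the gene's strand (RefSeq, GRCm38.p6), and capitals mark bases covered by a peak of both antibodies.
Fbxo31, chr8:121578807-121579056, minus strand: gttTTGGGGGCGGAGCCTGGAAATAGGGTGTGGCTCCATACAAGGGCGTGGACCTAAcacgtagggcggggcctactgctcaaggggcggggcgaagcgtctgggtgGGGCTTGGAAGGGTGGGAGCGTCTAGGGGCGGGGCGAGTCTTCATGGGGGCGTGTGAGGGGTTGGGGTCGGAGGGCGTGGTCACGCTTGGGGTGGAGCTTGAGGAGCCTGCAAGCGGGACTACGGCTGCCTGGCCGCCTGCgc
Psmc6, chr14:45329574-45329823, plus strand: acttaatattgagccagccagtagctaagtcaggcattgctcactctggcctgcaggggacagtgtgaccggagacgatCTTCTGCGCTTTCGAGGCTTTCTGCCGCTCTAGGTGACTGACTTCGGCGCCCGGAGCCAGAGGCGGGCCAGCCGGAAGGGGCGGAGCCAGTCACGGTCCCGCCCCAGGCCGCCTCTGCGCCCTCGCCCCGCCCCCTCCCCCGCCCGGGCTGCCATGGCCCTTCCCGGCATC
Atp11b, chr3:35753813-35754062, plus strand: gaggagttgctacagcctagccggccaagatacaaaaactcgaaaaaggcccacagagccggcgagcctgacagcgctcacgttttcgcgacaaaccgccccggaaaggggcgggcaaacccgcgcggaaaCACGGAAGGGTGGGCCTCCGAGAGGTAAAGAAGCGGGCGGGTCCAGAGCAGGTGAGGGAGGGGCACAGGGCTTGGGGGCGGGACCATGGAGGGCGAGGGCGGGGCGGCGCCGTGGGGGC
At Fbxo31, 195 of the 250 bases were covered by both antibodies, at METTL14 positions 350 and 825 in Mettl3 CKO and 2136 and 678 in Mettl3 Control lists and at METTL3 position 208 in 1 Mettl14 CKO list. At Psmc6, which encodes an ATPase of the proteasome cap, 171 bases were covered and 4 libraries had a call. At Atp11b, a phospholipid flippase gene, 119 bases were covered and 3 libraries had a call. The Atp11b region stood at mean positions of 67.2% in METTL14 and 80.2% in METTL3 lists.

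Inside protein-coding genes and away from their boundaries lay 52 shared regions (21.5%), against 22.2% of METTL14-only and 40.9% of METTL3-only regions. All 8 libraries called 16 of them. The earliest after Chl1 lay in Kctd16 (an auxiliary subunit of GABA-B receptors), in Cmss1 and Filip1l, which overlap each other, in Cdk8 (the Mediator kinase) and in Fbxw4 (an F-box protein). Further ones were in Cldn34d, E030030I06Rik, Zc3h7a, Jarid2, Camk1d, Cdk5rap2 and Gphn. Jarid2 encodes a cofactor of Polycomb repressive complex PRC2, and its region chr13:44869467-44869789 stood at positions 51 and 54 in Mettl3 CKO and 51 and 53 in Mettl3 Control lists, and at 75 and 70 in Mettl14 CKO and 54 and 59 in Mettl14 Control lists. Gphn encodes the scaffold of inhibitory synapses, and its region chr12:78350876-78351169 stood at positions 75 and 70 in Mettl3 CKO and 83 and 92 in Mettl3 Control lists. Its METTL3 positions were 86 and 81 in Mettl14 CKO and 77 and 84 in Mettl14 Control lists. The METTL3 positions were later in both CKO lists than in both Control lists in 8 of the 16 regions, Jarid2 among them, beside 23.8% (19 of 80) of the regions called in all 8 libraries in any place. The METTL3 positions were earlier in both CKO lists in 3 of the 16, beside 10 of 80. With METTL14, positions were later in both Mettl3 CKO lists in 4 of the 16 and earlier in 2, beside 25 and 11 of 80. The 80 include the 16, and none of these counts was tested.

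A further 13 shared regions lay inside other annotated genes, and 7 of those were called in all 8 libraries. One, chr9:110281163-110281460, contains the gene of miR-6236, within the long noncoding RNA gene Gm39429, and was called in 7 libraries. It is the shared region that holds a whole mature miRNA, whose sequence (RefSeq, GRCm38.p6, chr9:110281353-110281371, plus strand) is given with the seed, bases 2 to 8, in capitals.
mmu-miR-6236: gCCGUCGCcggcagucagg
The missing call was 1 Mettl3 CKO library of METTL14. The mean position was 5.23% in METTL14 and 34.4% in METTL3 lists. The remaining 70 shared regions (28.9%) lay in none of these places, and 25 were called in all 8 libraries.

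Part of the shared regions lay close together. When shared regions within 100 kb of each other were joined, the 242 fell into 118 neighbourhoods. Of these, 92 held a single region and 8 held 5 or more, 102 regions in all. METTL14-only and METTL3-only regions were not joined in this way. Closeness is therefore not shown to be particular to shared regions. After JH584304 and the chromosome 9 start, the largest were at chr1:85250020-85345685 and chr11:3100116-3199976, with 9 regions each. The chromosome 1 cluster, over C130026I21Rik, Gm38510 and Gm7592, had no region called in all 8 libraries, and 7 of its 9 were called in 2 or 3. Its span also held 13 METTL14-only and 5 METTL3-only regions. The chromosome 11 cluster over Sfi1 and Gm51877 had 2 called in all 8, and its span also held 8 METTL14-only regions and 1 METTL3-only region. On chromosome 4, 6 regions lay in chr4:147253786-147439225 near the zinc finger gene Zfp978, beside 15 METTL14-only and 11 METTL3-only regions. Chromosome 8 stood apart in its balance, with 14 shared regions, none called in all 8, beside 188 METTL3-only and 373 METTL14-only regions.

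METTL14 calls at shared regions were fewer in both Mettl3 CKO libraries than in both Control libraries, given as a description because these calls are the ones that chose the regions, without regard to genotype. Mettl3 CKO libraries called 175 and 153 of the 242 regions and Mettl3 Control libraries 204 and 198, so the groups did not overlap. The means were 164 ± 15.6 in CKO and 201 ± 4.24 in Control libraries (SD, n = 2 each), a log2 difference of -0.30. The lower count, 153, came from the shortest METTL14 list, of 1439 peaks. Whole METTL14 lists, of 3922 and 1439 peaks in CKO and 3129 and 3546 in Control libraries, did overlap between the groups. The log2 difference was -0.16 with every list shortened to 242 peaks, -0.12 for regions called in both libraries of a group of each antibody, and -0.40 without the mitochondrial genome, contigs, chromosome 9 start and rRNA copy. As a share of a library's own peaks, shared regions took 4.54% and 10.8% in Mettl3 CKO and 6.58% and 5.67% in Mettl3 Control libraries. On that scale the difference was 1.56 percentage points, and the groups overlapped.

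METTL3 calls at shared regions numbered 143 and 167 in Mettl14 CKO and 159 and 153 in Mettl14 Control libraries. The means of 155 ± 17 in CKO and 156 ± 4.24 in Control libraries (SD, n = 2 each) differed by -0.01 on the log2 scale, which is likewise a description with no test. Shared regions took 59.1% and 48.5% of the METTL3 peaks in Mettl14 CKO and 45.0% and 44.9% in Mettl14 Control libraries, a difference of 8.86 percentage points. The Mettl14 CKO libraries were both higher, and the higher of them was the shortest METTL3 list, of 242 peaks.

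**Figure D5:**
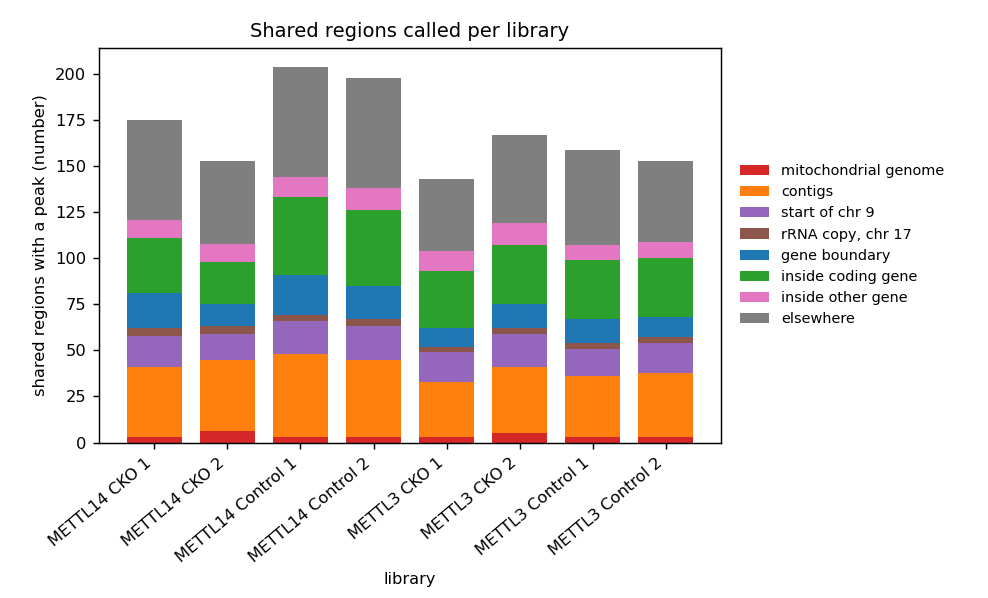
Number of the 242 shared regions with a peak in each library, stacked by place (vertical axis starts at 0). METTL14 bars reach 175 and 153 in Mettl3 CKO and 204 and 198 in Mettl3 Control libraries, and METTL3 bars lie between 143 and 167.

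Few shared regions split cleanly by genotype. All 4 METTL14 libraries called 125 (51.7%) and all 4 METTL3 libraries 90 (37.2%). With METTL14, 1 region (0.413%) was called in both Mettl3 CKO libraries and in neither Control library, beside 1.72% of all METTL14 regions. It was chrM:3207-3713 over ND1, at positions 36 and 41. The reverse pattern, both Control and no CKO library, held for 11 shared regions (4.55%), beside 2.99% of all METTL14 regions. They included chr13:119609501-119609802 in Tmem267, at positions 137 and 127, chr4:147417219-147417597, at 480 and 402, and chrX:92795977-92796261, at 260 and 242.

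With METTL3, 8 shared regions (3.31%) were called in both Mettl14 CKO and no Control library, beside 1.27% of all METTL3 regions, and 6 (2.48%) in both Control and no CKO library, beside 0.806%. The first kind included the Relb region and chr1:85624968-85625284 in Sp140, which encodes a nuclear body protein, at positions 151 and 173. The second kind included a JH584304 region, at positions 63 and 64, chr8:123427944-123428331, at 108 and 115, and chr8:123431360-123431771, at 105 and 106. Both patterns were rare in both antibodies, and with 2 libraries a group none of these regions could be tested singly. A region called in 1 library of an antibody can show neither pattern. Such regions were 683 of all 868 METTL3 regions but 78 of the 242 shared ones. For METTL14 they were 5693 of 8063 and 47 of the 242. The shares among shared regions and among all regions thus have unlike bases, and their contrast is no result.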

How the data were processed

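Each of the 8 libraries had its own list of CUT&RUN peaks as deposited by the authors, in mm10 coordinates; replicates were not pooled. The deposited score was 1 for every peak and was not used. Tools listed without roles in the submitters' processing notes are HOMER, SAMtools, Bowtie2 2.4.1, Trimmomatic 0.38 and CASAVA. The sources used here give neither peak threshold nor background library nor read depth, so a missing call may reflect depth. Peaks sharing at least 1 bp were merged, and position is the place in file order as a percentage of the list. Genes and promoter windows came from RefSeq tables for GRCm38.p6, with 21900 protein-coding genes; the promoter windows used cover neither chromosome 18 nor the mitochondrial genome, and repeat annotation and exons were not used here. Places were assigned in a fixed order: mitochondrial genome, contigs, first 3.3 Mb of chromosome 9, rRNA copy with 10 kb to either side, 2 kb around a coding gene boundary, inside a coding gene, inside another gene, none.

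Named regions were the 10 earliest called in all 8 libraries, the 3 best of each place, up to 12 at boundaries and 12 inside coding genes, the 5 earliest of each clean CKO or control pattern and those at listed genes; a few others were chosen after their values were seen. The members and lists were chosen with earlier results of these data known. An exact permutation test of CKO against control had been planned; it is not reported, since the same calls chose the regions. Boundary shares were tested by exact sign flips over libraries. Region merging was tested on simulated lists. Python 3.11.15, numpy 2.4.6, pandas 2.3.3, scipy 1.17.1 and matplotlib 3.10.9 were used. Alternatives were other overlaps, chromosome sets, library sets, list lengths, windows and leaving out each library; those without the 4 special places and with transcription starts were added after seeing the data.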

Additional observations from a re-analysis of the deposited data

How the results depend on the processing

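Of 207 values recomputed for 12 results, 152 counted as unchanged, 44 moved and 11 turned in sign. For differences, a change of sign alone was counted, whatever the change in size. Shares counted as moved outside the Wilson interval of the main value. Median positions counted as moved beyond the SD between libraries, and counts beyond a fixed ratio to the main count. The 152 include the replicate block values, which equal the main values by construction. The number of shared regions was 123 when both libraries of a group of each antibody had to call a region, 153 with lists of equal length and 160 without the 4 special places (mitochondrial genome, contigs, chromosome 9 start and rRNA copy), where 52 were called in all 8 libraries. The shared percentage of METTL3 regions was 24.5 with a 50% reciprocal overlap, 23.0 on chromosomes 1 to 19 and X, 32.6 in Control and 35.6 in CKO libraries alone, 80.4 with replicated calls and 20.8 without the 4 places. Leaving out single libraries gave 25.7 to 33.5. That of METTL14 regions was 2.64, 2.27, 3.67 (CKO libraries alone), 8.25 and 2.02 under the same settings, 38.2 with equal lists and 2.70 to 3.86 without single libraries. The 4 places held 27.9% with peaks within 500 bp merged, 12.2% on chromosomes 1 to 19 and X and 50.3% with equal lists. The percentage at or in coding genes was 42.8 on those chromosomes, 26.1 in CKO libraries, 24.4 with replicated calls, 18.3 with equal lists and 48.1 without the 4 places.

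The median METTL14 position was 9.22% with 500 bp merging, 10.9% on chromosomes 1 to 19 and X, 4.03% in Control libraries, 3.53% with replicated calls, 37.9% with equal lists, 16.9% without the 4 places and 4.35 to 6.41% without single libraries. The METTL3 median was 37.4%, 39.9%, 25.5%, 21.8%, 28.4% and 42.3% under the first 6 of these and 27.3% in CKO libraries. The METTL3 log2 difference between CKO and Control, -0.01, was 0.015 with an overlap of at least 50% of the shorter peak, 0.026 with reciprocal overlap, 0.057 with replicated calls, 0.022 with equal lists and -0.13 to 0.10 without single libraries. The METTL3 boundary difference was -1.04 in Control libraries, -1.40 with replicated calls, -5.39 with equal lists and -6.79 with 5 kb. The METTL14 boundary difference stayed between -34.8 and -49.7 points under every alternative run, and the METTL14 log2 CKO difference stayed between -0.12 and -0.40. Why these values moved was not tested. Whether replicate numbers pair the libraries could not be decided. Over regions, the difference in calls between CKO replicates 1 and 2 was correlated with that between Control replicates 1 and 2. The correlation was 0.00721 for METTL14 and -0.0172 for METTL3. Of METTL14 regions 5693 of 8063, and of METTL3 regions 683 of 868, were called in 1 library of the antibody. Such regions hold the correlation near 0 whatever the pairing. With the replicate block the differences, -0.30 for METTL14 and -0.01 for METTL3, equal the main values by construction and show nothing about stability. With depth unknown, a region not called is not shown to lack METTL3 or METTL14.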
